A study of Mus musculus with 8 samples.

Results

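Schwann cells wrap the peripheral axons of the auditory nerve in myelin, and the genes described here are 41 that serve that task. They were taken by gene symbol from a written list, and all 41 were among the 15035 genes of the table. They fall into 6 roles. Some are proteins of peripheral myelin and of the Schwann cell membrane, transcription regulators, or signals and their receptors. The others are laminin chains of the basal lamina, laminin receptors with the dystroglycan complex, and Charcot-Marie-Tooth neuropathy genes together with lipid or endosome genes.

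A myelinating Schwann cell forms 1 myelin segment on 1 axon. The transcription factors Pou3f1 and Egr2 switch it to the myelinating state, and Egr2 works with the coregulators Nab1 and Nab2. The cell makes its own basal lamina, whose laminins bind integrins and dystroglycan on its outer surface, and Adgrg6, an adhesion G protein-coupled receptor, is needed for myelination to begin. In the auditory nerve, Schwann cells myelinate the part inside the cochlea, and oligodendrocytes myelinate the part next to the brainstem.

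The study compared auditory nerves dissected from cochleas of wild-type mice and of mice labelled Mef2c-heterozygote, all at postnatal day 21, with 4 libraries in each group. Each library came from 1 mouse, with both of its cochleas pooled. The Mef2c allele and the strain are not given in the sources used here. Values are the authors' normalized counts, taken here as gene read counts scaled for library depth. Wild-type values are given in the order of replicates 1 to 4 and heterozygote-labelled values in the order of replicates 5 to 8.

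The estimated depth was 13363365 to 21507209 reads per library. Mef2c itself was higher in the libraries labelled heterozygote (583.3 to 735.1 normalized counts) than in wild type (402.2 to 508.7), with a log2 fold change of 0.53 (limma-trend adjusted p 0.186). A value per gene does not show whether reads come from the targeted exons, but the level goes against the label, so every direction below is between libraries as labelled. Wild-type library 1 and heterozygote-labelled library 5 had 12 and 7.6 normalized counts of Xist, against 5175 to 8615 in the other 6, and no label gives sex or batch. These 2 libraries hold 1 sample of each genotype, so no comparison within them was possible. Wild-type library 1 also had the most Rn45s, the ribosomal RNA precursor, with 741630 normalized counts against 272483 to 502236.

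None of the 41 genes passed a Benjamini-Hochberg adjusted p of 0.05 in limma-trend, a linear model fitted across all genes on log2(normalized count + 1). Of the 14870 genes tested, 12 passed (0.0807%), 1 higher (0.00672%) and 11 lower (0.074%). All 41 members passed the filter on low values (10 or more normalized counts in 4 or more libraries). At an unadjusted p under 0.05 there were 10 members (24.4%), 8 of them higher with the heterozygote label and 2 lower, against 14.1% of all genes (6.72% higher and 7.34% lower). In 7 members (17.1%) the genotypes did not overlap, 5 higher and 2 lower, against 7.26% of all genes (3.4% higher and 3.86% lower). The median log2 fold change, heterozygote minus wild type, was 0.09 over the members, with 26 higher and 15 lower, and 0.02 over all genes. The median over the members was 0.0027 after a correction for transcript length and 0.05 without the 2 libraries low in Xist. In the authors' deposited table Adgrg6 and Cmtm5, 2 of the 41, had an FDR under 0.05, against 1.61% of its genes. In 2 of 19 alternative analyses 3 members passed an adjusted p of 0.05. With the leading residual component as a covariate they were Adgrg6, Cmtm5 and Lpin1, where 3.87% of all genes passed. Without wild-type library 3 they were Adgrg6, Cmtm5 and Dag1, where 1.49% did. The residual component was taken from the residuals of the same fit. It left every fold change as it was and could change only the standard errors, so the genes that passed with it are no separate evidence.

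**Figure D1:**
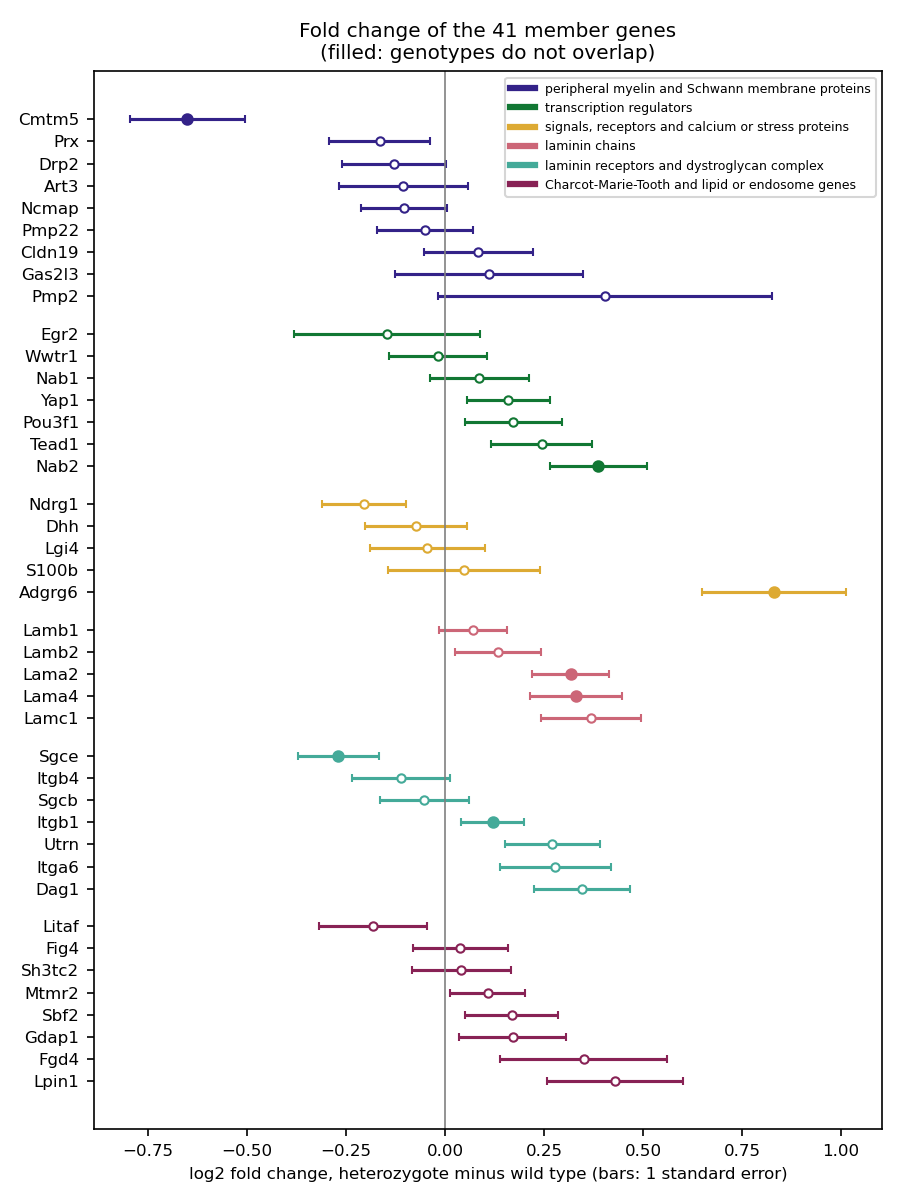
Log2 fold change (x axis, heterozygote minus wild type) of each of the 41 genes (rows), grouped and coloured by role, with bars of 1 standard error and filled points where the 4 libraries of each genotype do not overlap. Adgrg6 at 0.83 and Cmtm5 at -0.65 lie farthest from 0, and all 5 laminin chains lie to the right of it.

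Without the 2 libraries low in Xist, 12 of the 41 members had an unadjusted p under 0.05, against 13.5% of all genes, and none an adjusted one. The log2 fold changes were then 0.82 for Adgrg6, -0.58 for Cmtm5, 0.46 for Nab2, 0.36 for Lama2, 0.33 for Lama4, 0.30 for Lamc1 and 0.31 for Dag1, all with an unadjusted p under 0.05 in limma-trend. The other 5 were Prx (-0.24), Egr2 (-0.47), Ndrg1 (-0.25), Yap1 (0.27) and Lamb2 (0.24), with unadjusted limma-trend p from 0.0224 to 0.0446. For Sgce (-0.24), Utrn (0.22) and Lpin1 (0.22) the unadjusted limma-trend p was 0.0618, 0.128 and 0.0685.

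The labelled tissue held abundant RNA of Schwann cell genes. Per kilobase of transcript, the highest wild-type levels were those of S100b, a calcium-binding protein of glia (17774 ± 3286 normalized counts per kilobase, SD, n = 4), and Pmp22, a membrane protein of compact peripheral myelin (12726 ± 1270). Ndrg1 and Prx followed on the same scale with 4532 ± 278 and 3714 ± 248. Ncmap (1171 ± 168) and Itgb1 (1154 ± 55.5) differed by less than the spread between libraries. The lowest levels were those of Adgrg6 (40.0 ± 8.57) and Pmp2 (34.6 ± 19.96), again within their spread of each other. Pmp2, a fatty acid-binding protein of peripheral myelin that is used as a marker of myelinating Schwann cells, was therefore near the bottom of the set.

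Among the proteins of peripheral myelin and the Schwann cell membrane, Cmtm5 alone had an unadjusted p under 0.05. Of the 9 genes for myelin and membrane proteins, 3 were higher and 6 lower, with a median log2 fold change of -0.10. That median was -0.02 after the length correction, 0.0044 without wild-type library 3, and -0.01 and -0.03 without heterozygote-labelled library 6 or 7. Their summed normalized counts were 49597 to 60502 in wild type and 44710 to 61193 in the libraries labelled heterozygote. In this bulk tissue, fewer cells of a type and less RNA per cell cannot be told apart.

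Pmp22 had 23777, 20385, 25938 and 22648 normalized counts in wild type and 25572, 19666, 21344 and 23008 in the libraries labelled heterozygote. The ranges overlapped almost fully, and the log2 fold change was -0.05 ± 0.12 (SE). Prx, the periaxin scaffold that links the Schwann cell surface to dystroglycan through Drp2, had 21432, 18278, 20650 and 20342 in wild type and 22580, 15370, 16887 and 17776 in the other group. In 3 heterozygote-labelled libraries Prx lay below every wild-type library, and in library 5 it lay above them all. Its log2 fold change was -0.16 ± 0.13 (SE, limma-trend adjusted p 0.557). Drp2, dystrophin-related protein, had a log2 fold change of -0.13, Ncmap, a protein of noncompact myelin, of -0.10, and Cldn19, a claudin of Schwann cell tight junctions, of 0.08. Standard errors for these 3 were 0.13, 0.11 and 0.14.

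Cmtm5, which encodes a tetraspan membrane protein, was the member that stood farthest below wild type. It lies on chromosome 14 at 54936261-54939274 (mm10, plus strand). Its wild-type libraries had 730.6, 671.1, 554.6 and 734.4 normalized counts, and the libraries labelled heterozygote had 397.6, 373.8, 529.6 and 415.4. All 4 of the second group were below the lowest wild-type library, by a narrow margin for library 7 against wild-type library 3. The means were 673 ± 83.9 and 429 ± 69.1 (SD, n = 4 each), and the log2 fold change was -0.65 ± 0.15 (SE). The unadjusted p was 0.000763 and the adjusted p from limma-trend 0.162. An exact permutation test (two-sided) gave p of 0.0286, the lowest possible with 4 against 4. Without wild-type library 3 the limma-trend adjusted p was 0.0374, and over all alternatives it ran from 0.0327 (with the residual component) to 0.531. The authors' deposited table gave a ratio of 0.638 and an FDR of 0.00869.

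Cmtm5 is also a gene of oligodendrocytes, whose markers differed in the same direction. Of 12 oligodendrocyte markers 10 were lower, with a median log2 fold change of -1.29, and 3 passed an adjusted p of 0.05 in limma-trend (Mog, Mobp and Klk6). The summed normalized counts of these markers were 19722 to 25145 in wild type and 5707 to 12044 in the libraries labelled heterozygote, and no marker was at 0 in any library. Of 11 myelin genes that both glial types express, 10 were lower, with a median of -0.42, and their summed counts did not overlap (229814 to 289662 against 134946 to 163614). In this second list 2 genes passed, one of them Mag, with 5604 to 7303 normalized counts in wild type and 2850 to 3932 in the other group. The part of oligodendrocyte RNA in the Cmtm5 difference, and in that of Gjb1 given further on, was not tested.

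**Figure D2:**
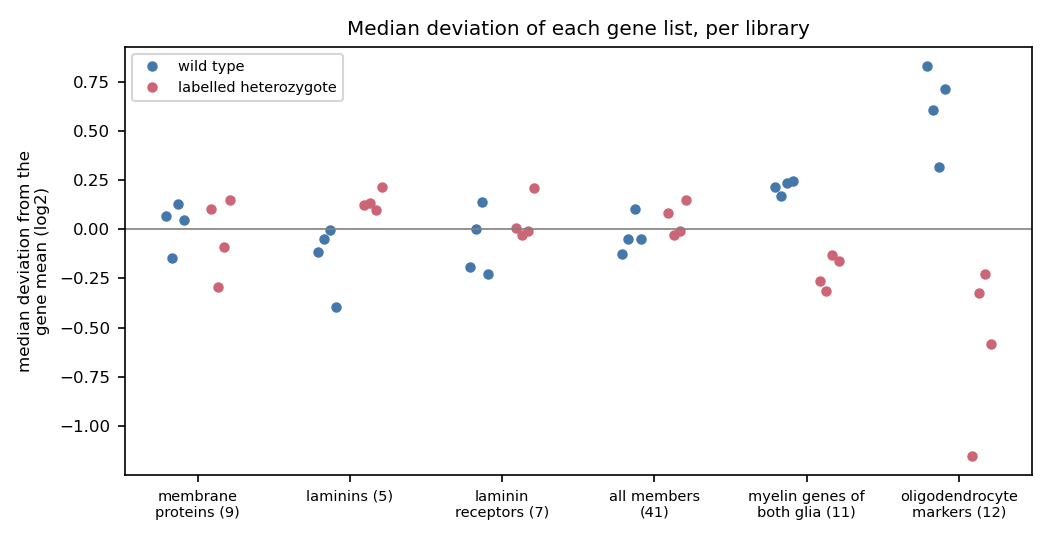
Median over the genes of each list (x axis, with the number of genes) of the deviation from the gene's mean over all 8 libraries (y axis, log2), 1 point per library, blue for wild type and red for labelled heterozygote. The points of the 41 members overlap, whereas those of the laminin chains, of the myelin genes of both glia and of the oligodendrocyte markers do not.

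The transcription regulators were mixed. Of 7 genes, 5 were higher and 2 lower, with a median log2 fold change of 0.16, and of 0.04 after the length correction. Egr2, the zinc-finger factor that drives myelin genes in Schwann cells, had 619.0, 737.3, 1216 and 978.4 normalized counts in wild type and 1097, 563.7, 655.9 and 892.6 in the libraries labelled heterozygote. It varied widely within both genotypes, and its log2 fold change of -0.15 was smaller than its standard error of 0.23. It was -0.47 without the 2 libraries low in Xist (unadjusted p 0.0415, limma-trend adjusted p 0.355) and 0.02 without wild-type library 3. Pou3f1, the POU-domain factor that acts before Egr2, had a log2 fold change of 0.17 ± 0.12 (SE).

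Nab2, a coregulator that binds Egr2, did separate the genotypes. Wild-type libraries had 726.8, 726.3, 601.3 and 544.7 normalized counts, and the libraries labelled heterozygote had 823.4, 790.3, 926.4 and 840.1. The means were 650 ± 91.6 and 845 ± 58.0 (SD, n = 4 each), and the log2 fold change was 0.39 ± 0.12 (SE). Its unadjusted p was 0.00844 and its limma-trend adjusted p 0.266. Its paralog Nab1 had a log2 fold change of 0.09 ± 0.13 (SE).

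Yap1 and Wwtr1 (TAZ) are the Hippo pathway's coactivators, which bind DNA through Tead1 and are needed for Schwann cells to myelinate. Yap1 had 2023, 1832, 1649 and 1621 normalized counts in wild type and 1804, 2030, 2228 and 1892 in the libraries labelled heterozygote, so the groups overlapped. The log2 fold changes of Yap1, Wwtr1 and Tead1 were 0.16, -0.02 and 0.24 (limma-trend adjusted p 0.489, 0.956 and 0.395). The correction for transcript length brought Tead1, with a transcript of 9964 bases, to -0.01.

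Promoters were read for the motifs of these regulators, because Egr2 and Tead1 bind near genes of this set. RefSeq windows of 300 bases (250 before and 50 after the start, GRCm38.p6) were matched by symbol for 28 of the 41 genes, which had 46 windows. The EGR motif GTGGGNG occurred on either strand in 15 of the 28 genes (53.6%), against 42.8% of the 11723 tested genes with a window. Counted by window, the shares were 41.3% and 38.4%. The TEAD motif GGAATG occurred in 11 of 28 genes (39.3%) against 14.6%, and in 30.4% of windows against 12.4%. For the SOX motif ACAAAG the shares of genes were 17.9% and 16.5%, and for the MEF2 motif 3.57% and 3.70%. The longer EGR motif GCGTGGGCG, which contains the shorter one, was found in 1 member, Nab1, against 1.36% of tested genes. A match is a description of the letters and not of binding.

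The stretches below hold EGR matches before the start of both Nab genes, of Prx, of the signal gene Dhh and of the dystroglycan gene Dag1. All are RefSeq GRCm38.p6, written on the gene's strand, with the matches in capitals. That of Nab1 is chr1:52500540-52500569 (minus strand), that of Nab2 chr10:127666754-127666783 (minus), that of Prx chr7:27499206-27499235 (plus), that of Dhh chr15:98898609-98898638 (minus) and that of Dag1 chr9:108264107-108264136 (minus). In Nab2 the capitals cover 2 matches that overlap.
Nab1: tcactcggccgcgcGTGGGCGggagccgga
Nab2: tcaggcctgggCTCCCACCCACcgcctccg
Prx: tgtttccccacCACCCACcctttgggtgac
Dhh: tcccccgcccggGTGGGAGggggcgggaca
Dag1: aaaggtgcccctCCCCCACcccagctagca

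Matches to the TEAD motif are shown for the myelin gene Pmp22 at chr11:63128797-63128826 (plus), for Yap1 at chr9:8004720-8004749 (minus) and for the laminin receptor gene Itgb1 at chr8:128685624-128685653 (plus).
Pmp22: acaccacaaattCATTCCaagttcatttcc
Yap1: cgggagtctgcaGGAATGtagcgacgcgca
Itgb1: aggcgcggctgacgcggcgcggaGGAATGc

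Egr2 was set against each of the 9 myelin and membrane genes across the 8 libraries, a comparison chosen after the values were seen. How many of all tested genes follow Egr2 as closely was not computed. The relations below therefore cannot be called particular to these genes. Art3, an ADP-ribosyltransferase gene, followed it most closely, with Pearson's r of 0.957 (exact permutation p 0.00062, adjusted over 9 relations 0.00558) and Spearman's rho of 0.952 (exact permutation p 0.00114, adjusted 0.0103). Without the 2 libraries farthest from the median of Egr2, wild-type library 3 and heterozygote-labelled library 6, r for Art3 was 0.930. Drp2 had r of 0.803 (exact permutation p 0.0106, adjusted 0.0478) and rho of 0.762 (exact permutation p 0.0368, adjusted 0.110). Without those 2 libraries r for Drp2 was 0.563. Leaving out the extremes of Egr2 also narrows its range, so this drop cannot show whether the relation rests on them.

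Pmp22 and Gas2l3 had r of 0.777 and 0.726, each with an adjusted exact permutation p of 0.0849, and rho of 0.714 and 0.810 (adjusted exact permutation p 0.130 and 0.0980). Prx had r of 0.637 (adjusted exact permutation p 0.162) and rho of 0.571 (adjusted 0.272). For Cldn19, Ncmap, Cmtm5 and Pmp2, r was 0.544, 0.173, -0.02 and -0.28 and rho 0.476, 0.405, 0.143 and -0.36, with adjusted exact permutation p from 0.242 to 0.955. Without the 2 libraries farthest in Egr2, r was 0.521 for Pmp22, 0.605 for Gas2l3 and 0.416 for Prx. Among the 6 libraries with high Xist, r with Egr2 was 0.963 for Art3, 0.939 for Pmp22, 0.931 for Prx, 0.922 for Drp2, 0.816 for Ncmap and 0.805 for Gas2l3. It was 0.658 for Cldn19, 0.435 for Cmtm5 and -0.245 for Pmp2. The libraries differ in depth and may differ in dissection, and the part of both in these relations was not tested.

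**Figure D3:**
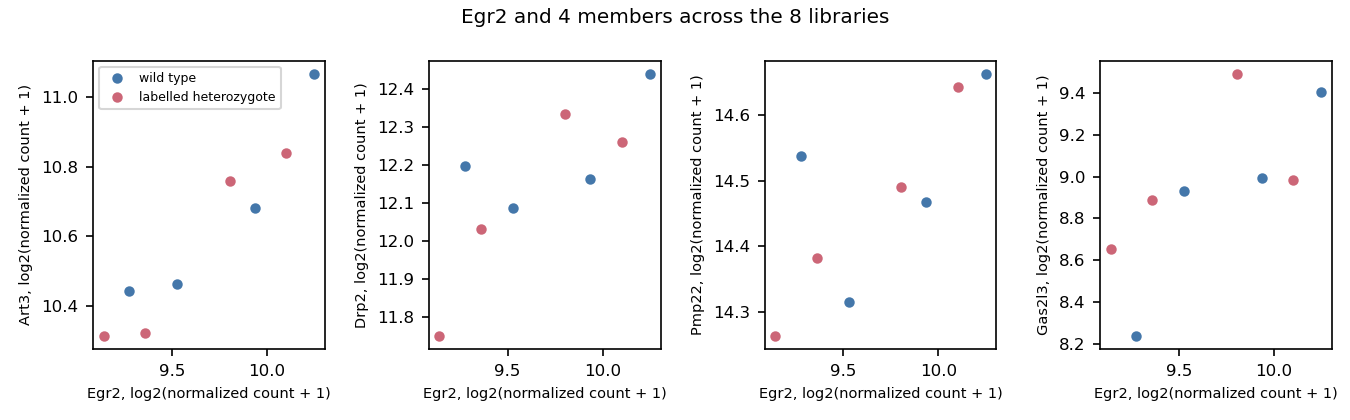
Egr2 (x axes) against Art3, Drp2, Pmp22 and Gas2l3 (y axes), all as log2(normalized count + 1), 1 point per library, blue for wild type and red for labelled heterozygote. The y axes differ in range. Over the libraries of both genotypes together, r for Art3 was 0.957.

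Among the signals and their receptors, Adgrg6 had the largest difference of all 41 genes. This receptor, also called Gpr126, raises cyclic AMP in Schwann cells and binds the laminin that contains Lama2. It lies on chromosome 10 at 14402583-14545659 (mm10, minus strand). Wild-type libraries had 198.6, 277.6, 328.2 and 235.5 normalized counts, and the libraries labelled heterozygote had 361.7, 501.0, 466.5 and 507.2. All 4 of the second group were above every wild-type library. The means were 260 ± 55.8 and 459 ± 67.4 (SD, n = 4 each), and the log2 fold change was 0.83 ± 0.18 (SE), a ratio of 1.78 on that scale. The unadjusted p was 0.000682 and the limma-trend adjusted p 0.160. The exact permutation p (two-sided) was again 0.0286. Without wild-type library 3 the limma-trend adjusted p was 0.0361, and over all alternatives it ran from 0.0244 (with the residual component) to 0.531. The authors' deposited table gave a ratio of 1.76 and an FDR of 0.00526.

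The other signal genes overlapped between the genotypes. Dhh, the hedgehog ligand that Schwann cells send to the perineurium, had 812.4, 989.6, 1182 and 944.5 normalized counts in wild type and 1005, 893.1, 809.5 and 1009 in the libraries labelled heterozygote. Lgi4, a secreted protein that acts on the receptor Adam22, had a log2 fold change of -0.04, and S100b of 0.05, each within its standard error (0.15 and 0.19). Ndrg1, a neuropathy gene abundant in Schwann cells, had 16957 to 19615 normalized counts in wild type and 13986 to 17843 in the other group, with 3 of 4 libraries below every wild-type one. Its log2 fold change was -0.20 ± 0.11 (SE, limma-trend adjusted p 0.393).

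The laminin chains were the role in which every gene was higher in the libraries labelled heterozygote. The median log2 fold change of the 5 chains was 0.32, from 0.07 to 0.37, and 3 had an unadjusted p under 0.05, against 14.1% of all genes. Their summed normalized counts were 12404 to 14365 in wild type and 15445 to 16481 in the libraries labelled heterozygote, and did not overlap. None passed an adjusted p of 0.05.

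Lama2, the alpha chain of the laminin of Schwann cell basal lamina, had 2053, 2154, 2113 and 1692 normalized counts in wild type and 2354, 2443, 2567 and 2581 in the libraries labelled heterozygote. The groups did not overlap, and the log2 fold change was 0.32 ± 0.10 (SE, unadjusted p 0.00670, limma-trend adjusted p 0.259). Lama4, the alpha chain of a laminin of developing nerve and of vessels, had 761.8, 768.8, 891.9 and 643.8 against 966.7, 906.2, 920.7 and 1044. It too did not overlap, with a log2 fold change of 0.33 ± 0.12 (SE, limma-trend adjusted p 0.278). Lamc1, the gamma chain shared by most laminins, had 2745, 3653, 4024 and 2811 against 4077, 4283, 3968 and 4539. Only library 7 fell within the wild-type range, and the log2 fold change was 0.37 ± 0.13 (SE, limma-trend adjusted p 0.278). The beta chains Lamb1 and Lamb2 had log2 fold changes of 0.07 and 0.13, with standard errors of 0.09 and 0.11.

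These are long transcripts, and fold changes here moved with transcript length. Across the 14517 tested genes with a length, fold change and length had a rank correlation of 0.43, and across the 41 members of 0.39 (genes are not independent replicates, and all share the same 8 libraries). After each library was corrected for a smooth trend on length, the median of the laminin chains was 0.07, and Lama2, Lama4 and Lamc1 had log2 fold changes of 0.07, 0.18 and 0.17 with unadjusted limma-trend p of 0.512, 0.0996 and 0.0764. Adgrg6, Cmtm5, Nab2, Dag1 and Sgce had an unadjusted p under 0.05 both with and without that correction, with log2 fold changes of 0.67, -0.45, 0.42, 0.21 and -0.34 after it. In all, 8 members (19.5%) had an unadjusted p under 0.05 after the correction, against 11.1% of all genes. The others were Drp2, Itgb4 and Ndrg1, all lower (-0.31, -0.26 and -0.26).

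Cells other than Schwann cells also make laminin. Markers of fibroblasts and perineurial cells were higher for 7 of 8 genes, with summed normalized counts of 28499 to 52466 in wild type and 38742 to 53012 in the libraries labelled heterozygote. Wild-type library 1 stood apart with 52466, and the other wild-type libraries, at 28499 to 32438, were below every library labelled heterozygote. Endothelial markers were higher for 4 of 8 genes, with lower sums that did not overlap (7563 to 9781 against 6655 to 7378), and markers of pericytes and smooth muscle for 5 of 8 (6680 to 8631 against 7950 to 8736). Osteoblast markers were higher for all 8 genes (3147 to 12613 against 6842 to 15507), and there too wild-type library 1 was high, the other 3 being at 3147 to 5778. No marker of these lists was at 0 in any library, and 0 of them passed an adjusted p of 0.05 in limma-trend. At an unadjusted limma-trend p under 0.05 there were 2 fibroblast genes (25%) and 3 osteoblast genes (37.5%), all higher. There were also 3 endothelial genes (37.5%) and 2 pericyte genes (25%), all lower. The share over all genes was 14.1%. The part of these cells in the laminin differences was not tested.

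**Figure D4:**
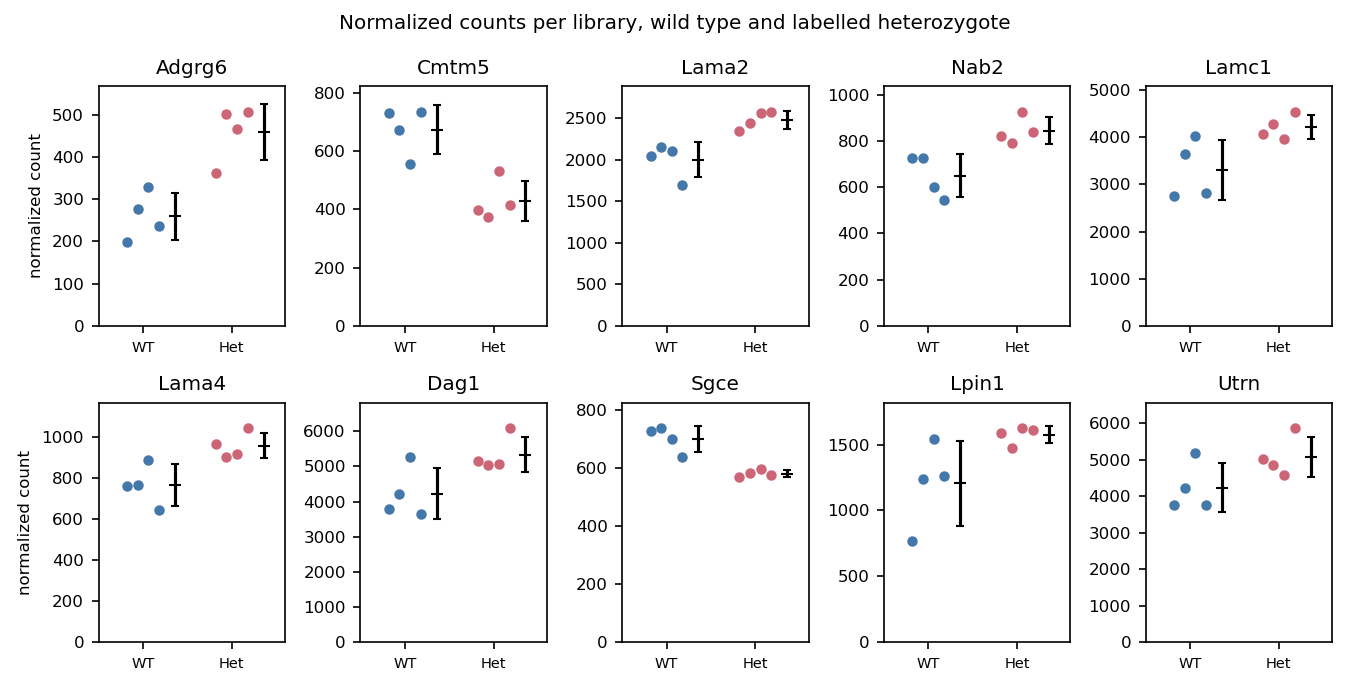
Normalized counts (y axes, from 0) of the 10 members with an unadjusted limma-trend p under 0.05, ordered by p, 1 point per library in replicate order, blue for wild type (WT) and red for labelled heterozygote (Het), with the mean and SD in black. Adgrg6, Lama2, Nab2 and Lama4 are higher and Cmtm5 and Sgce lower in all 4 libraries labelled heterozygote, whereas Lamc1, Dag1, Lpin1 and Utrn overlap.

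The receptors of laminin were mixed. Of 7 genes 4 were higher and 3 lower, with a median log2 fold change of 0.12, and of -0.02 after the length correction. Dag1 encodes both subunits of dystroglycan, the laminin receptor that myelinating Schwann cells use. It had 3797, 4209, 5274 and 3640 normalized counts in wild type and 5154, 5047, 5061 and 6086 in the libraries labelled heterozygote. Wild-type library 3 reached into the upper group, and the log2 fold change was 0.35 ± 0.12 (SE, unadjusted p 0.0150, limma-trend adjusted p 0.278). Without wild-type library 3 the log2 fold change was 0.46 and the limma-trend adjusted p 0.0476, against adjusted p of 0.0476 to 0.618 over all alternatives.

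Utrophin and the sarcoglycans belong to the same complex. Utrn had 3774, 4219, 5190 and 3752 normalized counts in wild type and 5030, 4858, 4577 and 5866 in the libraries labelled heterozygote, with overlap. Its log2 fold change was 0.27 ± 0.12 (SE, unadjusted p 0.0442, limma-trend adjusted p 0.344), and -0.02 after the length correction, its transcript being the longest of the set (12382 bases). Sgce, epsilon-sarcoglycan, was lower. It had 728.0, 737.3, 699.4 and 637.7 in wild type and 568.1, 582.0, 596.5 and 574.8 in the libraries labelled heterozygote, with no overlap. The log2 fold change of Sgce was -0.27 ± 0.10 (SE, unadjusted p 0.0225, limma-trend adjusted p 0.298). Sgcb, beta-sarcoglycan, had a log2 fold change of -0.05 ± 0.11 (SE).

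Among the integrin genes, Itgb1, the common beta subunit, had 4332, 4585, 4559 and 4134 normalized counts in wild type and 4602, 4963, 4802 and 4762 in the libraries labelled heterozygote. The groups did not overlap, but the margin was small, with a log2 fold change of 0.12 ± 0.08 (SE, adjusted p in limma-trend 0.497). Itga6, which pairs with either beta subunit, had 1360 to 2154 in wild type and 1730 to 2192 in the other group (log2 fold change 0.28, limma-trend adjusted p 0.383). Itgb4, which joins Itga6 in mature myelinating cells, had 982.4, 1208, 1227 and 1280 in wild type and 958.1, 1100, 998.9 and 1300 in the libraries labelled heterozygote. Its ranges overlapped, and the log2 fold change was -0.11 ± 0.12 (SE).

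Among the Charcot-Marie-Tooth and lipid or endosome genes, 7 of 8 were higher and 1 (Litaf) lower, with a median log2 fold change of 0.14. The median was 0.05 without wild-type library 1, 0.04 without both libraries low in Xist and 0.05 after the length correction. Only 1 had an unadjusted p under 0.05. That gene was Lpin1, a phosphatidate phosphatase of lipid synthesis whose loss causes a neuropathy in mice. It had 770.9, 1242, 1541 and 1265 normalized counts in wild type and 1588, 1477, 1624 and 1609 in the libraries labelled heterozygote. The means were 1205 ± 319 and 1574 ± 66.6 (SD, n = 4 each), and wild-type library 1 was far below the rest. The log2 fold change was 0.43 ± 0.17 (SE, unadjusted p 0.0285, limma-trend adjusted p 0.316). Without wild-type library 1 it was 0.23.

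Sh3tc2, which acts in endosomal recycling, had 399.7, 449.5, 461.1 and 459.0 normalized counts in wild type and 472.5, 508.0, 404.3 and 438.8 in the libraries labelled heterozygote. The groups overlapped, with a log2 fold change of 0.04 ± 0.12 (SE). Of the phosphoinositide enzymes and their partners, Mtmr2, a lipid phosphatase, had a log2 fold change of 0.11, its partner Sbf2 of 0.17 and Fig4, another phosphatase, of 0.04. Fgd4, a Cdc42 exchange factor, had 402.3 in wild-type library 1 and 664.0 to 900.1 in the other wild-type libraries, against 764.1 to 962.9. Its log2 fold change was 0.35 ± 0.21 (SE), and 0.11 without wild-type library 1. Gdap1, a mitochondrial protein, and Litaf, an endosomal one, had log2 fold changes of 0.17 and -0.18 with standard errors of 0.14 each, and Gdap1 was at 0.03 without wild-type library 1.

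The wider Schwann cell programme was read from 30 further genes. Of these 19 were higher and 11 lower, with a median log2 fold change of 0.05. None passed an adjusted p of 0.05 in limma-trend, and 6 had an unadjusted p under 0.05, 3 in each direction, against 14.1% of all genes. After the length correction the median was -0.01. Then 5 genes (16.7%) had an unadjusted limma-trend p under 0.05, against 11.1% of all genes, and 3 had one both with and without the correction. Gjb1, a connexin of noncompact myelin made by both Schwann cells and oligodendrocytes, had 1128 to 1512 normalized counts in wild type and 807.1 to 858.8 in the libraries labelled heterozygote (log2 fold change -0.63, limma-trend adjusted p 0.0626). Hspg2, the basal lamina proteoglycan perlecan, had 2715 to 3122 against 3264 to 4403 (log2 fold change 0.44, limma-trend adjusted p 0.178). Its transcript is long (14187 bases), and these values are without the length correction. Mal, a raft protein of myelin that is also among the myelin genes of both glia, had 8183 to 10339 against 6778 to 7759 (log2 fold change -0.34, limma-trend adjusted p 0.236). Sox10, the factor that keeps Schwann cell identity, and Erbb3, the neuregulin receptor, had log2 fold changes of 0.17 and 0.14 with standard errors of 0.11 and 0.15.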

How the data were processed

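Per the submitters' processing notes, STAR, Partek and DESeq2 were used with the mm10 build. The counting method and annotation are not given in the sources used here. Per the labels, poly(A) libraries were made with a directional kit from 50 ng of RNA. The authors deposited a signal per gene and library, here called normalized counts. Most of its values are spaced as read counts divided by a library factor would be. Their deposited comparison holds each p-value with its FDR, a ratio of heterozygote to wild type, and that ratio as log2. The deposited signed fold change (a score) was left unused. What 1 read is worth was estimated in each library from the spacing of the values below 1000, which should be whole multiples within 0.05. This held for 88.4% to 91.7% of values, under the 95% needed for a count model. 3 reads are worth 2.37 to 3.89 normalized counts.

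Genes with at least 10 in at least 4 libraries were tested by limma-trend on log2(value + 1), all 8 libraries, no covariate, adjusted over 14870 genes. Fold changes on this scale understate those of low genes. Single values used two-sided exact permutation tests over 70 splits. The test was first checked on simulated data with 200 changed genes. It recovered 86% of 4-fold and 65% of 2-fold changes and called 9 unchanged genes. Changes smaller than 2-fold were not simulated. Positions and transcript lengths (longest transcript, 97.6% of genes) are from GENCODE M21, on the same build. R 4.3.3, limma 3.58.1 and Python 3.11.15 were used.

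The members and lists were chosen with earlier results of these data known. Every member may be named. Library values are given for members with an unadjusted p under 0.05 or no overlap, and for Pmp22, Prx, Egr2, Yap1, Dhh, Lama2, Dag1, Itgb4, Sh3tc2 and Lpin1. From other lists, genes past the threshold and up to 3 with the smallest p are named, and Sox10, Erbb3 and Jun were added after their values were seen. Some genes are not reported here. Alternatives were other pseudocounts, filters, scalings, limma-voom, covariates, a length correction (loess, span 0.5) and left-out libraries.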

Additional observations from a re-analysis of the deposited data

Results flagged for a closer look

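Of 82 groups of 4 libraries (41 genes in 2 genotypes), 2 had 1 library far from the other 3, and chance gives about 1 in 20. For Lamb2 in the libraries labelled heterozygote, library 6 had 6417 normalized counts against 5508 to 5631, a gap of 0.864 of the range. For Dag1 in the same group, library 8 had 6086 against 5047 to 5154, a gap of 0.896 of the range.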

How the results depend on the processing

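No paired analysis was possible because the groups share no replicate numbers. In the 19 alternatives, 25 of the 41 members kept their sign, among them 9 of the 10 with an unadjusted p under 0.05. The exception was Utrn. The number of members with a limma-trend adjusted p under 0.05 was 0, and 3 in each of 2 alternatives. With the leading residual component as a covariate these were Adgrg6 (adjusted p 0.0244), Lpin1 (0.0284) and Cmtm5 (0.0327), 2 higher and 1 lower, where 576 of all genes passed (3.87%). Without wild-type library 3 they were Adgrg6, Cmtm5 and Dag1, again 2 higher and 1 lower, where 221 of all genes passed (1.49%). The residual component came from the residuals of the same fit, so it left fold changes as they were and changed only their standard errors. Leaving out 1 library at a time gave 0 to 3 members (0 to 2 higher, 0 to 1 lower) and 0 to 221 of all genes. It was 0 without wild-type library 2 or 4 or heterozygote-labelled library 8, 6 without library 7 and 7 without library 5. All genes passing numbered 12, 7 with quantile normalization and 30 with the length correction. The cause of the changes with the other alternatives was not tested.

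The length correction turned the sign of Pmp22 (0.048), Gas2l3 (-0.0592), Tead1 (-0.0103), Lamb1 (-0.0659), Utrn (-0.0222), Sh3tc2 (-0.0621) and Sbf2 (-0.0164), none past the threshold. Without the 2 libraries low in Xist, the sign turned for Gas2l3 (-0.0990), Wwtr1 (0.0676), Sgcb (0.0067), Sh3tc2 (-0.0260) and Fig4 (-0.0083). With 1 library left out, the log2 fold change ran from -0.117 to 0.0090 for Pmp22, -0.0174 to 0.166 for Cldn19, -0.199 to 0.0298 for Art3, -0.106 to 0.282 for Gas2l3, -0.313 to 0.0213 for Egr2, -0.120 to 0.0540 for Wwtr1, -0.160 to 0.0203 for Dhh, -0.127 to 0.0764 for Lgi4, -0.134 to 0.1725 for S100b, -0.0129 to 0.0967 for Sh3tc2 and -0.0126 to 0.0793 for Fig4. Pmp2, with 26.6 to 88.6 normalized counts, was not tested under the filter of 100.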

Other observations

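Genes that hold Schwann cells back from myelination were read from a list of 9. In the libraries labelled heterozygote 6 were higher and 3 lower, with a median log2 fold change of 0.08. None passed an adjusted p of 0.05 in limma-trend, and 3 had an unadjusted p under 0.05, against 14.1% of all genes. After the length correction 1 of the 9 (11.1%) did, as did 11.1% of all genes. Notch1, a receptor that opposes myelination, had 910.0 to 1252 normalized counts in wild type and 1108 to 1477 in the other group (log2 fold change 0.38, limma-trend adjusted p 0.278). Id4 and Id2, which encode inhibitors of helix-loop-helix factors, had log2 fold changes of -0.24 and -0.27 (limma-trend adjusted p 0.326 and 0.334). Jun, the injury factor of Schwann cells, had a log2 fold change of 0.13 (limma-trend adjusted p 0.720).

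Markers of satellite and non-myelinating glia were lower for 5 of 8 genes, with summed normalized counts of 18997 to 25141 in wild type and 12150 to 16227 in the libraries labelled heterozygote. Gfap, an intermediate filament that astrocytes also make, was the largest part of these sums. Its means were 12894 in wild type and 6477 in the other group, against mean sums of 21372 and 14542, so the lower sums rest mostly on Gfap. The log2 fold change was -0.99 for Gfap (limma-trend adjusted p 0.160) and -1.20 for Fabp7, a fatty acid-binding protein of glia (0.110). L1cam was among the 3 higher genes (0.43, limma-trend adjusted p 0.341), and the median over the 8 genes was -0.13. Neuron markers were higher for 4 of 9 genes and overlapped in sum (196207 to 270034 against 220168 to 263260), with 0 at an adjusted and 0 at an unadjusted p under 0.05. Macrophage markers were lower for 7 of 8 genes, with 0 at an unadjusted limma-trend p under 0.05 (sums of 3604 to 5508 against 3284 to 4390).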
